A study of Mus musculus with 6 samples.

Results

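Microglia of mice that were helpless after inescapable foot shock and later stopped being so were set against microglia of mice that had received no shock. The first side is the chronic recovered library. The second is the share of the non-shocked library to which the authors gave the same batch number, 3. Members were the cells that the authors had typed as microglia in these libraries. Barcodes with 50 or more UMIs of Ttr, the main secreted product of the choroid plexus epithelium, were left out, which removed 1 of 372 recovered barcodes and none of the non-shocked ones. This left 371 recovered and 429 non-shocked cells, 800 of the 3005 cells and of the 2721 microglia in the series.

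All mice carried the strain label BC57BL/6. In the learned helplessness paradigm, mice first receive shocks they cannot escape and are then tested for whether they escape shocks that can be escaped. Recovered mice had received 180 inescapable shocks of 0.3 mA, a test of 30 trials of 24 s, and then weekly retests for 3 weeks. After perfusion, hippocampi were freed of meninges and choroid plexus, dissociated and spun on layered Percoll. Live cells with surface CD45 were sorted, and 5' droplet libraries were prepared. The labels do not say how many mice were pooled in a library, and they give no age or sex. The other 4 libraries (chronic non-helpless, chronic non-recovered, acute non-helpless and acute helpless) serve below only to place the levels of single genes.

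With 1 library a side there is no spread between replicates and no test was possible. Each gene is given by its UMIs, which count captured transcripts, and by its CPM, its counts scaled to a fixed total over all microglia on that side. A fold is the ratio of the CPM values, and the range in parentheses is an exact 95% interval of that ratio that covers counting error only. Genes with at least 20 CPM on the higher side counted as measured. A gene at least 1.5-fold apart is called higher or lower here, always meaning in recovered microglia.

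Microglia are the resident macrophages of the brain. In the healthy hippocampus they survey their surroundings through receptors such as P2ry12 and Cx3cr1, clear debris through lysosomes, tag synapses with complement and depend on signalling through Csf1r. Among the systems that cells use to cope with stress are the chaperones of the heat shock response, switched on by the transcription factor Hsf1, and the genes switched on by glucocorticoid hormones through the receptor Nr3c1. Both are followed here beside the genes of microglial identity.

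The cells carried the label's markers on both sides. At least 1 UMI of 7 microglial markers (P2ry12, Tmem119, Cx3cr1, Siglech, Fcrls and Olfml3 among them) was found in 370 of 371 recovered and 428 of 429 non-shocked cells. These genes made up 4.15% of recovered and 4.01% of non-shocked UMIs. The recovered side held 1720769 UMIs with a median of 4568 per cell, and the non-shocked side 1698927 with a median of 3906. Mitochondrially encoded genes took 1.12% and 1.27% of UMIs. One cell barcode sequence occurred on both sides. The summed levels of 7 neutrophil, 7 monocyte, 9 T cell and 6 NK cell markers were at most 8.83 CPM on either side. The recovered side had less of 7 border-associated macrophage markers (5.81 against 17.7 CPM, with Lyve1, Cd163 and Cbr2 at 0 on both sides) and 5 red blood cell markers (12.2 against 34.1 CPM). It had more of 6 choroid plexus markers (32.5 against 12.9 CPM, with Folr1, Clic6 and Kcnj13 at 0 on both sides). The sums were 71.5 against 61.8 CPM for 5 B cell, 91.2 against 84.8 for 6 oligodendrocyte, 185 against 152 for 6 astrocyte, 4.65 against 7.06 for 6 neuronal and 30.2 against 34.7 for 6 endothelial and pericyte markers. Single genes made up most of some sums. Slc1a3 held 317 of 318 recovered and 255 of 258 non-shocked astrocyte UMIs. Cnp held 126 of 157 and 107 of 144 oligodendrocyte UMIs, and Pecam1 50 of 52 and 56 of 59 endothelial and pericyte UMIs. Among B cell markers, Cd79b had 78 against 92 UMIs. Cd79a had 22 against 4 (5.43-fold, 1.84 to 21.7) and Ebf1 20 against 6 (3.29-fold, 1.27 to 10.0). The part of these cell types in the results was not tested.

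The sides differed in 3 further ways that touch the results. The authors' clusters hardly overlapped: 325 recovered cells were in cluster 2 and 46 in cluster 6, while 244 non-shocked cells were in cluster 1, 138 in cluster 3, 38 in cluster 4 and 9 in cluster 6. Ribosomal protein genes also took 6.14% of recovered and 4.68% of non-shocked UMIs. Cells with under 2.5% of their UMIs in these genes, called ribosome-poor below, made up 34 recovered cells, or 9.16% (6.43 to 12.6, exact Clopper-Pearson), and 145 non-shocked cells, or 33.8% (29.3 to 38.5). Finally, 302 measured genes parted the 6 libraries 3 against 3. On one side stood the recovered library and both non-helpless libraries. On the other stood the chronic non-recovered library, the acute helpless library and the non-shocked cells of batch 3. In these genes every library of one side lay at least 1.5-fold from every library of the other, in one direction. Batch 3 held libraries of both sides of this split. Its cause was not tested, and genes that belong to the group are named as such.

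Of 7240 measured genes, 254 were higher and 921 lower, which is 3.51% and 12.7%. The median log2 ratio was -0.03 and the median distance from equality 1.19-fold. The 302 genes above belong by their definition to these calls, 300 on the lower and 2 on the higher side. Without them, 252 of 6938 genes were higher and 621 lower, or 3.63% and 8.95%. The shares over all measured genes are the background for the count of called members in each gene list below. The interval of the fold excluded equality for 1052 of the 1175 called genes. Among called genes the higher side of the ratio was often faint: 758 of the 921 lower and 217 of the 254 higher genes had 20 to 100 CPM there.

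**Figure D1:**
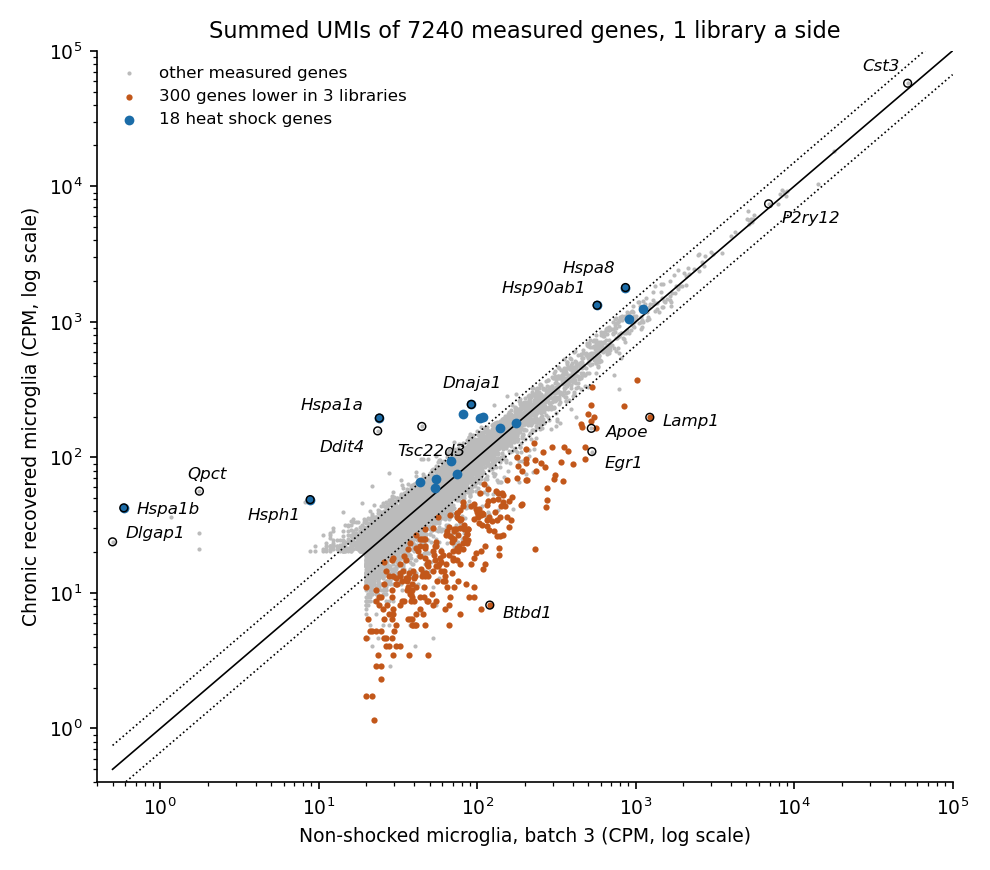
Summed UMIs of the 7240 measured genes as CPM, with non-shocked microglia of batch 3 on the horizontal and chronic recovered microglia on the vertical axis, both on log scales. Dotted lines mark 1.5-fold either way, and values under 0.5 CPM are drawn at 0.5. Most genes lie along the diagonal, including P2ry12 and Cst3, while heat shock genes (blue) lie on or above it and the 300 lower genes that part the libraries (orange) lie below it.

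Heat shock chaperones were the clearest group on the higher side. All 18 measured members of the heat shock list had a log2 ratio above 0, with a median of 0.73 against -0.03 for all measured genes. Of these, 10 were higher and none lower, where 3.51% of all genes were higher. They included the inducible chaperones Hspa1a and Hspa1b, the constitutive Hspa8, both cytosolic forms of Hsp90, the J-domain partners Dnaja1 and Dnajb1, the nucleotide exchange factors Hsph1 and Bag3, and the mitochondrial co-chaperonin Hspe1.

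Upstream sequences are given for the higher members in which they hold an inverted repeat of GAA, the unit of Hsf1 binding sites. They are shown because the members lay together on the higher side. Whether Hsf1 binds there was not tested. The sequences are from RefSeq (GRCm38.p6), the 140 bases before the first start listed for the gene, 5' to 3' on its strand. The first start listed need not be the most upstream one. Capitals mark GAANNTTC or TTCNNGAA, each of which reads the same on both strands. Matches may overlap, as 3 do in Hspe1.
Hspa1a: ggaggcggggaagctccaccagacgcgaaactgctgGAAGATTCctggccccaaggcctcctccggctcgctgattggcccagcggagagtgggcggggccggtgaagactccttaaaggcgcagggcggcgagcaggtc
Hspa1b: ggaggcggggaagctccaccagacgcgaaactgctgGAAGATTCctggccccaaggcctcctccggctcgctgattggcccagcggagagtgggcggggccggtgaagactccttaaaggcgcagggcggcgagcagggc
Hsph1: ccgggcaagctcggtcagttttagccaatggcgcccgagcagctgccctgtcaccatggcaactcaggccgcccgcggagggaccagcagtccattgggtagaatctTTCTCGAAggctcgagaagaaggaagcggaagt
Dnaja1: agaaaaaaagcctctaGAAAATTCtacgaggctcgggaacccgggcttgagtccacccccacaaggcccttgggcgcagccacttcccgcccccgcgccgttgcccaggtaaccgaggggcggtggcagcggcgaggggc
Hspe1: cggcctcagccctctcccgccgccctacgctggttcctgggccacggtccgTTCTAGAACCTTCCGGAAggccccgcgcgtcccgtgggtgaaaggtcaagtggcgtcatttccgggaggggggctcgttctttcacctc

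These lie at chr17:34972157-34972296 (Hspa1a), chr17:34959239-34959378 (Hspa1b), chr5:149636337-149636476 (Hsph1), chr4:40722328-40722467 (Dnaja1) and chr1:55088008-55088147 (Hspe1), the first 3 on the minus and the others on the plus strand. For Dnaja1 3 starts are listed, and the stretch shown lies inside the gene as annotated in GENCODE M21, which begins at 40722150. The Hsph1 and Hspe1 stretches overlap their annotated genes in part. Hspa1a and Hspa1b were identical in 247 of 250 upstream bases (98.8%), and the genes themselves are near-identical copies, so how reads were split between them is uncertain. Within 250 bases before the first start listed, a match was found in 5 of the 7 higher heat shock genes that the table holds. Dnaja1 is among the 5. Of the 6 other measured heat shock genes in the table, 1 had a match. The share was 12.9% of all 27025 genes in the table, 10.2% of 5759 measured genes, 16.1% of 199 higher and 7.64% of 694 lower genes. A match describes the letters in this window only. Dnajb1 and Bag3 had none in it, and Hspa8, Hsp90aa1 and Hsp90ab1 are named here without sequence.

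Hspa8, the abundant chaperone that folds new proteins and uncoats vesicles, had 3083 UMIs (1792 CPM) in recovered and 1465 (862 CPM) in non-shocked microglia, a 2.08-fold difference (1.95 to 2.21). Its other levels were 1543 CPM (acute non-helpless), 1400 CPM (acute helpless), 1797 CPM (chronic non-helpless) and 1283 CPM (chronic non-recovered). Hsp90ab1, a constitutive form of Hsp90 that holds steroid receptors ready for hormone, had 2281 against 970 UMIs (1326 and 571 CPM) and was 2.32-fold higher (2.15 to 2.51). Non-shocked microglia of batch 3 had the lowest level of both genes among the 6 libraries, and those of batch 2 (123 cells with a median of 905 UMIs) lay lower still, at 608 and 459 CPM. Of all 254 higher genes, 134 (52.8%) were lowest in the non-shocked cells of batch 3 among the 6 libraries.

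Dnaja1 had 423 against 156 UMIs, 2.68-fold higher (2.22 to 3.24). Dnajb1, which belongs to the group that parts the libraries, had 359 against 138 UMIs, 2.57-fold higher (2.10 to 3.15). Both deliver unfolded clients to Hsp70 proteins. The Hsp70 co-chaperone Stip1, which hands clients on to Hsp90 and was named by its rank rather than as a list member, had 118 against 56 UMIs, 2.08-fold higher (1.5 to 2.91).

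Hspa1b, Hspa1a and Hsph1 had the largest folds of the list. Hspa1a had 336 UMIs (195 CPM) in 93 recovered cells and 41 UMIs (24.1 CPM) in 15 non-shocked cells, 8.09-fold higher (5.84 to 11.5). Among the other shocked libraries it stood at 284 CPM (acute non-helpless), 32.1 CPM (acute helpless), 179 CPM (chronic non-helpless) and 125 CPM (chronic non-recovered). The recovered level was thus neither the highest nor the lowest of the shocked libraries. Hspa1b had 73 UMIs against 1, 72.1-fold higher (12.5 to 2885), and is the second higher gene that parts the libraries. Hsph1 had 84 against 15 UMIs, 5.53-fold higher (3.17 to 10.3). The remaining higher members were Hsp90aa1 at 1.87-fold (1.55 to 2.25), Hspe1 at 1.82-fold (1.52 to 2.19) and Bag3 at 1.51-fold (1.11 to 2.05). Bag3 lay at the threshold, with a log2 ratio of 0.59, or 0.56 without its top cells.

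Not every chaperone stood apart. Hsf1, which drives the response, had 129 against 127 UMIs a fold of 1.00 (0.779 to 1.29). The endoplasmic reticulum chaperone Hspa5 had a fold of 1.16 (1.08 to 1.24). Its partner Hsp90b1 had 1.11 (1.05 to 1.19) and the mitochondrial Hspd1 1.37 (1.07 to 1.76), all short of the threshold.

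The chaperone difference was spread over cells. When every cell was thinned to 1000 UMIs, which left out 7 recovered and 25 non-shocked cells, Hspa8 was found in 78.3% (73.7 to 82.4) of recovered and 55.2% (50.2 to 60.1) of non-shocked cells. Without thinning, it was found in 358 of 371 and 354 of 429 cells. Hspa1a was found in 13.5% (10.1 to 17.4) against 1.49% (0.547 to 3.20) of thinned cells. Among cells that were not ribosome-poor, Hspa8 was 1.94-fold (1.81 to 2.07), Hsp90ab1 2.19-fold (2.03 to 2.38) and Hspa1a 9.0-fold (6.1 to 13.8) higher, and the list's median was 0.64. Leaving out genes that part the libraries, 16 members had a median of 0.52.

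The largest clusters on each side had like depths and few ribosome-poor cells, so their levels are given as well. Recovered cluster 2 (325 cells, median 4765 UMIs) had 1820 CPM of Hspa8, 1337 of Hsp90ab1 and 193 of Hspa1a. Non-shocked cluster 1 (244 cells, median 4947 UMIs) had 964, 622 and 16.7 CPM. In cluster 6, the only one found on both sides, 46 recovered cells had 1350 CPM of Hspa8 and 1145 of Hsp90ab1, and 9 non-shocked cells had 647 and 744. Hspa1a gave no such difference there, at 225 and 226 CPM from 23 and 7 UMIs. The clusters were made from these same expression values, so the levels are a description.

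**Figure D2:**
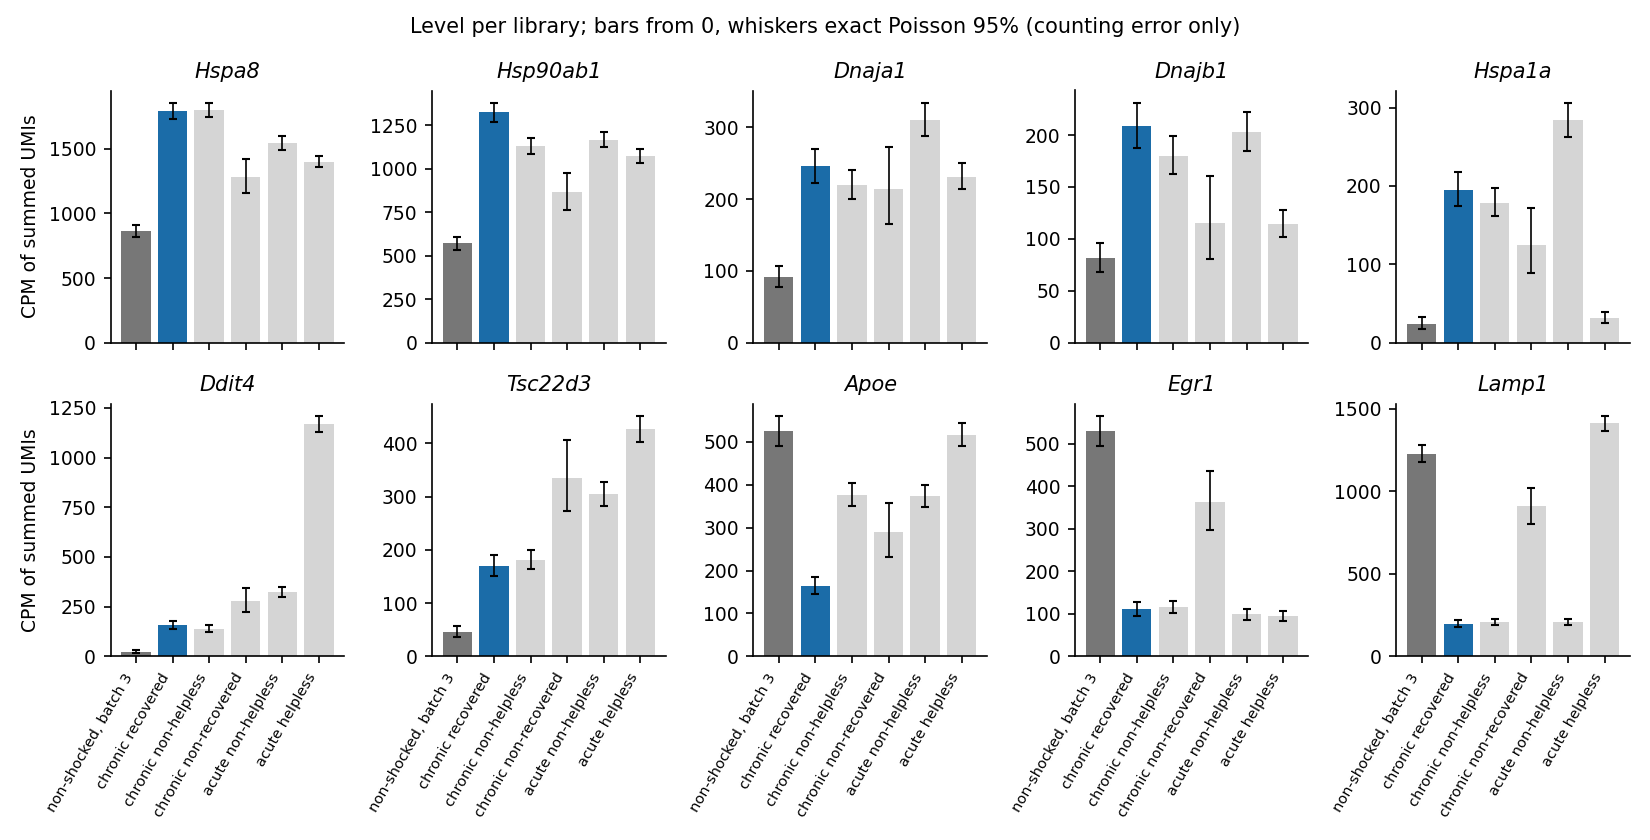
Level of 10 genes in microglia of each library, in CPM of summed UMIs on axes that start at 0, with exact Poisson 95% whiskers for counting error. Non-shocked batch 3 microglia are dark grey, recovered blue and the other libraries light grey. The dark grey bar is the lowest for Hspa8, Hsp90ab1, Dnaja1, Dnajb1, Hspa1a, Ddit4 and Tsc22d3, and the blue bar is the lowest for Apoe and Lamp1. Non-shocked batch 3 microglia were the lowest for 134 of all 254 higher genes (52.8%).

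Genes that glucocorticoids induce did not stand on one side. The list had a median of 0.09 over 16 measured members, with 3 higher and 2 lower, against 3.51% and 12.7% of all genes. The 3 higher members were Ddit4, an inhibitor of the growth kinase mTORC1, Tsc22d3, a leucine zipper protein that damps inflammatory transcription, and Nfkbia, which holds NF-kB in the cytosol.

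Ddit4 had 270 UMIs (157 CPM) in recovered and 40 (23.5 CPM) in non-shocked microglia, 6.66-fold higher (4.77 to 9.54). It reached 323 CPM (acute non-helpless), 1168 CPM (acute helpless), 138 CPM (chronic non-helpless) and 276 CPM (chronic non-recovered). Tsc22d3 had 291 against 76 UMIs (169 and 44.7 CPM), 3.78-fold higher (2.93 to 4.93), and stood at 304, 426, 182 and 336 CPM in the same order. For both genes recovered and chronic non-helpless microglia lay close together, and every shocked library lay above the non-shocked cells of batch 3. The same order, with non-shocked cells of batch 3 the lowest of the 6 libraries, held for 134 of all 254 higher genes (52.8%). Non-shocked microglia of batch 2 had 68.8 CPM of Ddit4 and 86.0 CPM of Tsc22d3. For both genes these levels lay above those of batch 3 and below every shocked library. Nfkbia had 491 against 262 UMIs, 1.85-fold higher (1.59 to 2.16).

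Fkbp5, a co-chaperone that dampens the glucocorticoid receptor, went the other way, with 33 UMIs (19.2 CPM) against 76 (44.7 CPM), 2.33-fold lower (1.53 to 3.62). Cells thinned to 1000 UMIs gave no such difference, at 12 of 364 recovered and 13 of 404 non-shocked cells with a UMI. The receptor gene Nr3c1 had 236 against 340 UMIs, a fold of 0.685 (0.578 to 0.811), short of the threshold. Arrdc2 was 1.82-fold lower (1.03 to 3.32). Sgk1, Dusp1, Mt1 and Cebpd, other genes of the list, lay within 1.5-fold.

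Ddit4 and Tsc22d3 were also widely spread. Ddit4 was found in 131 recovered and 35 non-shocked cells, and in 13.2% (9.89 to 17.1) against 2.72% (1.37 to 4.82) of cells thinned to 1000 UMIs. In cells that were not ribosome-poor the folds were 6.55 (4.55 to 9.71) for Ddit4 and 3.74 (2.83 to 5.02) for Tsc22d3. For Ddit4, recovered cluster 2 had 164 CPM and non-shocked cluster 1 had 24.7.

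Microglial identity genes were close to equal. Of 37 measured homeostatic genes, 36 lay within 1.5-fold, with a median of 0.03. P2ry12, the purinergic receptor that guides microglial processes, had 12773 against 11722 UMIs, a fold of 1.08 (1.05 to 1.10). The fold was 1.01 (0.978 to 1.04) for the fractalkine receptor Cx3cr1 and 0.927 (0.905 to 0.95) for the growth factor receptor Csf1r. Transcription factors that hold microglial identity lay near equality too, with Sall1 at 0.894 (0.779 to 1.03), Spi1 at 1.07 (0.982 to 1.16) and Irf8 at 0.954 (0.872 to 1.04). The exception was Mef2a, a MADS-box transcription factor, with 695 against 1232 UMIs, 1.80-fold lower (1.63 to 1.97).

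Complement and Fc receptor genes gave the same picture. None of 14 lay 1.5-fold apart and their median was 0.08, with C1qa at 1.05-fold (1.03 to 1.08), C1qb at 1.10-fold (1.08 to 1.13) and C1qc at 1.06-fold (1.04 to 1.09). Of 19 MHC class I presentation genes none was called, but 16 had a log2 ratio above 0 and the median was 0.21. B2m, the light chain of class I molecules, had a fold of 1.29 (1.19 to 1.39), and the heavy chain H2-K1 had 1.24 (1.12 to 1.37), as did H2-D1 (1.14 to 1.36). The median stayed at 0.20 among cells that were not ribosome-poor.

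**Figure D3:**
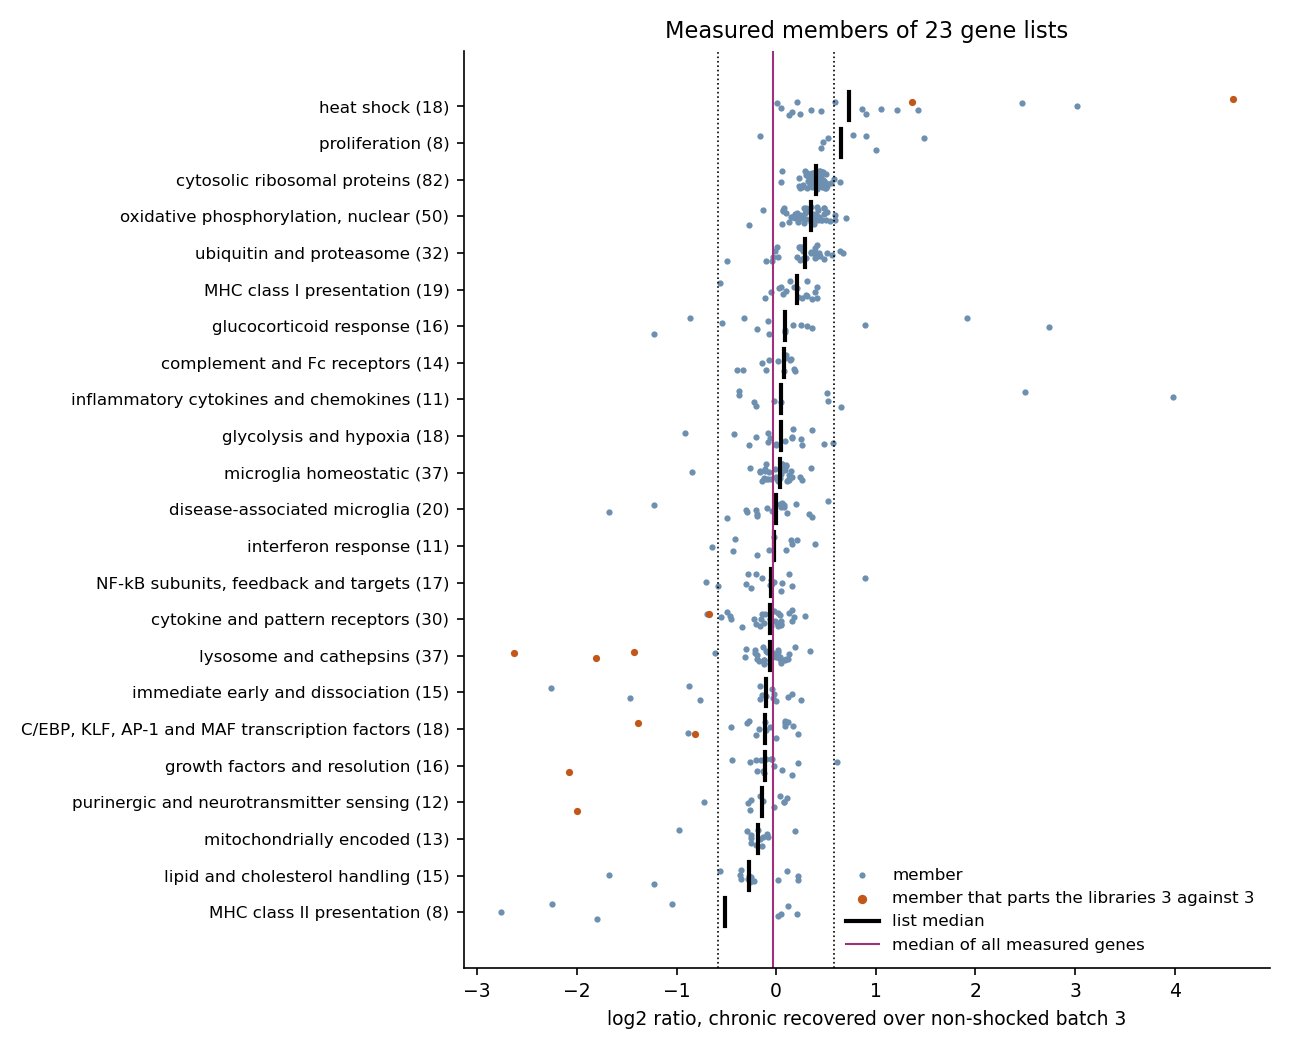
Log2 ratio of recovered over non-shocked batch 3 microglia for the measured members (points, number in parentheses) of 23 gene lists, ordered by list median (black bars). The purple line is the median of all measured genes, dotted lines mark 1.5-fold, and orange points are members that part the libraries 3 against 3. Heat shock genes have the highest median, 0.73, and MHC class II presentation genes the lowest, -0.51.

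Lower values of several immune genes rested on 1 cell. The MHC class II list had the lowest median, -0.51, with 4 of 8 measured members lower. Among them, the class II chains H2-Eb1, H2-Aa and H2-Ab1 had 14 against 94, 19 against 89 and 25 against 86 UMIs, and the invariant chain Cd74 had 161 against 328. A single non-shocked cell, the deepest of the 429 with 19731 UMIs, held 85 of the 94 H2-Eb1, 84 of the 89 H2-Aa, 65 of the 86 H2-Ab1 and 236 of the 328 Cd74 UMIs. It also held 103 UMIs of P2ry12 and 28 of Tmem119, beside 35 of the myeloid gene Lyz2, 28 of Apoe, 6 of the 8 non-shocked UMIs of the monocyte receptor Ccr2, and 2 each of the border-associated macrophage genes Mrc1 and Pf4. On the recovered side 1 barcode of 1597 UMIs held 13 of the 19 H2-Aa and 73 of the 161 Cd74 UMIs, with 4 UMIs of the B cell gene Cd79a and none of P2ry12 or Tmem119.

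Outside the cell that holds most of each gene, the folds were 0.878 (0.295 to 2.56) for H2-Eb1, 1.18 (0.301 to 4.91) for H2-Aa, 0.940 (0.484 to 1.82) for H2-Ab1 and 0.944 (0.697 to 1.28) for Cd74. All 4 intervals include equality. The list's median was then 0.06. The other measured members, Ctss, H2-DMa, H2-DMb1 and H2-Oa, lay between 1.01-fold and 1.16-fold with all cells.

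Chemokine genes were concentrated in the same way, on the recovered side. Ccl2, which attracts monocytes, had 80 against 14 UMIs, but 61 of the 80 lay in 1 cell, and outside the top cells the fold was 1.56 (0.720 to 3.53). Ccl5, which attracts T cells, had 48 against 3 UMIs, with 42 in 1 cell. Ccl4 had 203 UMIs in 22 recovered cells and 128 in 42 non-shocked cells, 1.57-fold higher (1.25 to 1.97). Without its top cells the log2 ratio of Ccl4 was 0.28 in place of 0.65, short of the threshold, and 5 cells held 84.2% of its recovered UMIs. The other 8 measured cytokine and chemokine genes, Il1a, Ccl3 and Tgfb1 among them, lay within 1.5-fold, and the list's median was 0.05. Over all genes such cases were few: without the top cell of each gene on each side, 245 of the 254 higher and 909 of the 921 lower genes stayed at least 1.5-fold apart.

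**Figure D4:**
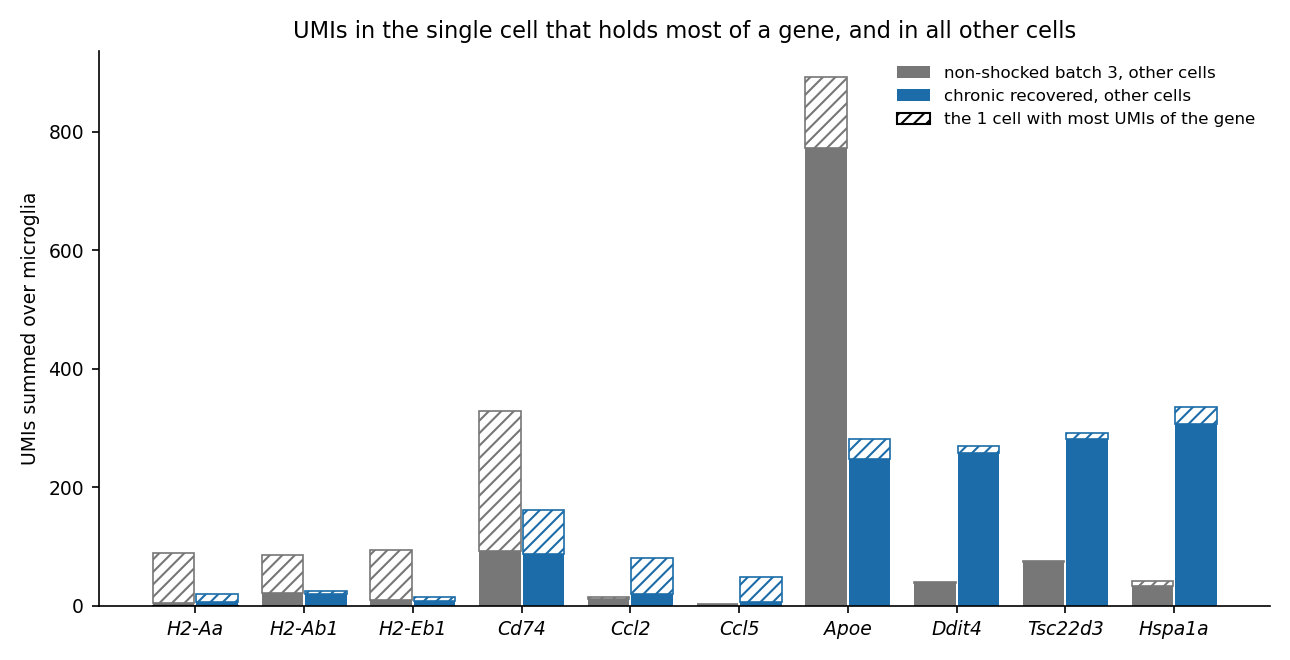
UMIs of 10 genes summed over non-shocked batch 3 (grey) and recovered (blue) microglia, on an axis from 0. The hatched part is the single cell that holds most UMIs of the gene on that side. The grey bars of H2-Aa, H2-Ab1, H2-Eb1 and Cd74 and the blue bars of Ccl2 and Ccl5 are mostly hatched, while those of Apoe, Ddit4, Tsc22d3 and Hspa1a are mostly solid.

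Apoe, the main lipid carrier of the brain and a gene that microglia raise near plaques, was lower and not through 1 cell. Its UMIs were spread unevenly over cells, as given below. It had 282 UMIs (164 CPM) in 79 recovered cells and 892 (525 CPM) in 127 non-shocked cells, 3.20-fold lower (2.80 to 3.68). The other levels, from the lowest, were 290 CPM (chronic non-recovered), 374 CPM (acute non-helpless), 376 CPM (chronic non-helpless) and 517 CPM (acute helpless). Recovered microglia thus had the lowest Apoe of the 6 libraries, 1.5-fold or more below each. Among 3829 genes with enough counts, only 3 others lay that far below every library, Pithd1 and Tef among them. No gene lay that far above every library.

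Outside the top cell of each side the Apoe fold was 0.317 (0.273 to 0.366), and in cells that were not ribosome-poor it was 3.52-fold lower (3.06 to 4.06). The same number of cells as counted above for Ccl4 held 39.7% of Apoe UMIs on the non-shocked and 27.3% on the recovered side. Among thinned cells, 8.79% (6.09 to 12.2) of recovered and 16.8% (13.3 to 20.8) of non-shocked cells had a UMI of Apoe. Recovered cluster 2 had 150 CPM and non-shocked cluster 1 had 485. Border-associated macrophages also express Apoe, and their 7 markers summed to 10 UMIs in recovered and 30 in non-shocked cells. Their part in the Apoe difference was not tested.

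Lpl, the lipase that releases fatty acids from lipoproteins, had 35 against 81 UMIs, 2.34-fold lower (1.56 to 3.59). It shared with Apoe 2 lists, lipid and cholesterol handling and disease-associated microglia, in which they were the only called members. The lipid list had a median of -0.27 over 15 members, and the cholesterol exporters Abca1 and Abcg1 had folds of 0.834 (0.727 to 0.955) and 0.783 (0.585 to 1.04). Among cells that were not ribosome-poor the list's median was -0.06. The disease-associated list had a median of -0.00 over 20 members, with Trem2 at 1.04-fold (0.997 to 1.09) and Ctsd at 1.03-fold (1.00 to 1.05).

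Immediate early genes, which code mainly for transcription factors that respond fast to many stimuli, tissue dissociation among them, were near equal apart from a few. The list had 4 lower and no higher members of 15, against 12.7% and 3.51% of all genes, with a median of -0.10. Egr1, a zinc finger transcription factor, had 190 UMIs (110 CPM) in 108 recovered cells and 899 (529 CPM) in 238 non-shocked cells, 4.79-fold lower (4.09 to 5.63). Elsewhere it stood at 115 CPM (chronic non-helpless), 98.4 CPM (acute non-helpless), 94.8 CPM (acute helpless) and 362 CPM (chronic non-recovered). Recovered cells were thus close to 3 other libraries, and the non-shocked cells of batch 3 had the highest level of the 6. Non-shocked microglia of batch 2 had 34.4 CPM, below the recovered level. Of all 921 lower genes, 341 (37.0%) were highest in the non-shocked cells of batch 3 among the 6 libraries.

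Ier3 was 2.77-fold (1.70 to 4.69), Atf3 1.83-fold (1.34 to 2.53) and Jund 1.70-fold (1.5 to 1.94) lower. The AP-1 genes Fos at 0.983 (0.883 to 1.09), Jun at 0.935 (0.885 to 0.987) and Junb at 0.909 (0.856 to 0.965) lay near equality. NF-kB subunits and targets had a median of -0.05 over 17 members, with Relb 1.63-fold lower (1.09 to 2.47) and Nfkbia as the only higher member. Interferon response genes had a median of -0.02 over 11 members, with Ly6e, a surface protein gene, at 1.16-fold (1.10 to 1.22) and Ifi27l2a 1.56-fold lower (0.910 to 2.73).

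Genes of protein synthesis and of mitochondrial respiration lay on the higher side in small steps. All 82 measured cytosolic ribosomal protein genes had a log2 ratio above 0, with a median of 0.40, yet only Rps27l passed 1.5-fold. Nuclear genes of oxidative phosphorylation had a median of 0.35, with 48 of 50 above 0 and 3 higher: Ndufs5 at 1.62-fold (1.25 to 2.12), Ndufb10 at 1.51-fold (1.22 to 1.87) and Atp5h at 1.5-fold (1.25 to 1.82). The 13 mitochondrially encoded genes had a median of -0.18, with mt-Atp8 1.97-fold lower (1.66 to 2.35). Ubiquitin and proteasome genes had a median of 0.29 over 32 members, with Psma6 at 1.59-fold (1.26 to 2.02) and Psmb5 at 1.56-fold (1.28 to 1.90).

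These medians moved with the share of ribosome-poor cells. Among the 337 recovered and 284 non-shocked cells with at least 2.5% ribosomal protein UMIs, they were 0.18 for ribosomal proteins, 0.14 for oxidative phosphorylation, 0.04 for mitochondrially encoded genes and 0.19 for the proteasome list. The first of these is set in part by the choice of cells. Of the called genes, 169 of the 254 higher and 724 of the 921 lower stayed at least 1.5-fold apart in these cells.

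**Figure D5:**
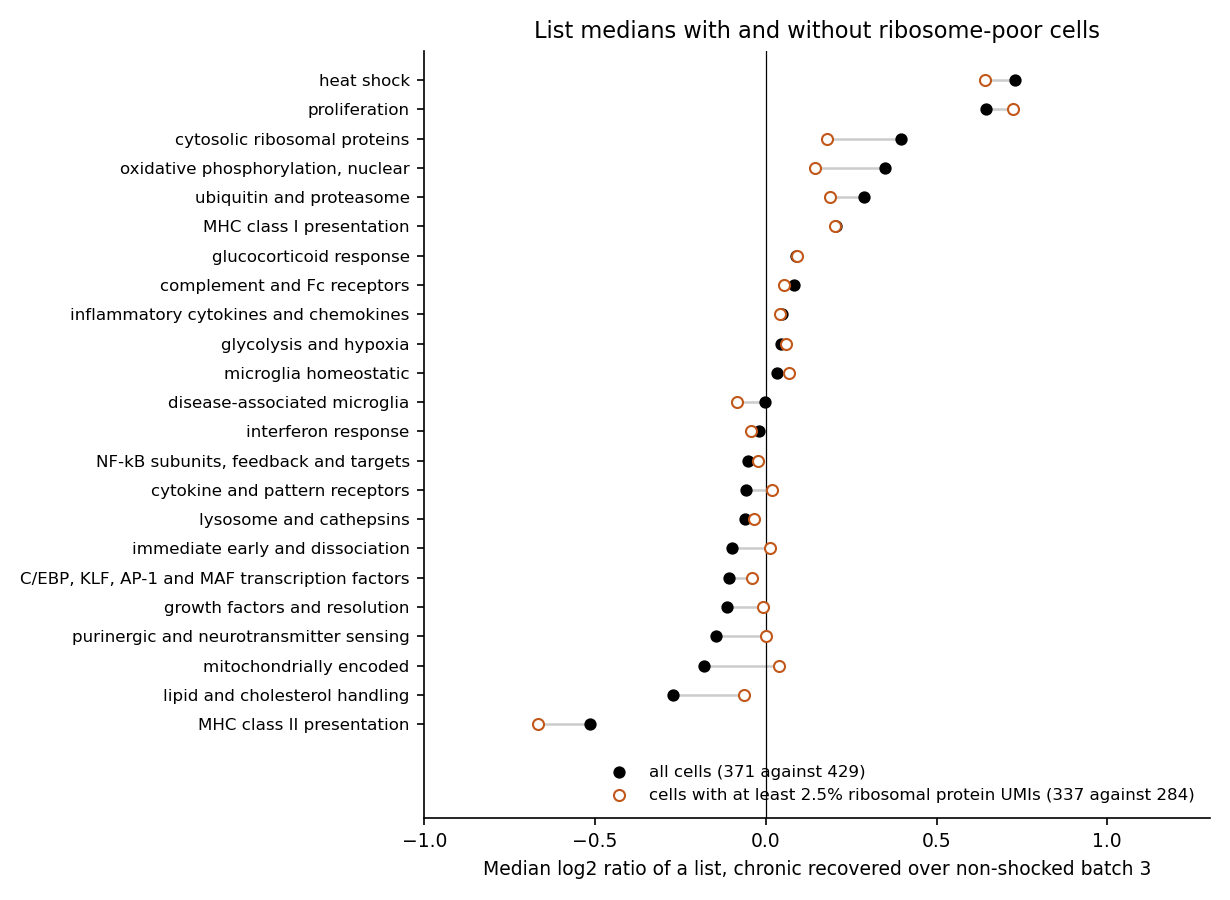
Median log2 ratio of each gene list over all cells (black) and over cells with at least 2.5% of UMIs in ribosomal protein genes (open orange). The ribosomal protein, oxidative phosphorylation and lipid lists move most toward 0, MHC class II presentation moves away from it, while heat shock goes from 0.73 to 0.64 and MHC class I presentation from 0.21 to 0.20.

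Proliferation genes had the second highest median, 0.65, but only 8 of 20 were measured. The higher ones were the tubulin-binding Stmn1 at 2.80-fold (1.73 to 4.66; 68 against 24 UMIs, 21 of the 68 in 1 cell), the G1 cyclin Ccnd3 at 2.00-fold (1.53 to 2.63), the replication helicase subunit Mcm6 at 1.87-fold (1.04 to 3.45) and Tyms at 1.71-fold (0.983 to 3.03), an enzyme that makes thymidylate. Ccnd1, the other measured G1 cyclin, had a fold of 0.894 (0.757 to 1.05). Cells with enough microglial and few neutrophil marker UMIs, 369 recovered and 428 non-shocked, gave a list median of 0.46. In them the log2 ratio of Mcm6 was 0.44 in place of 0.90, short of the threshold, and that of Stmn1 0.96 in place of 1.48. Ccnd3 at 0.90 and Tyms at 0.74 stayed above the threshold. Glycolysis genes had a median of 0.04, with Pdk1, which closes the route from glycolysis to the mitochondria, 1.88-fold lower (1.48 to 2.41).

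The lowest ratios belonged mostly to the group of genes that part the libraries. Of the 12 genes with the lowest ratio among those with at least 50 CPM and 30 UMIs on the higher side, 11 were in it, among them Btbd1, Ctbp1, Tm7sf3, Plk3, Bri3, Retreg2, Tprgl, Bag1, Micu2 and Galnt11. They ran from 14.8-fold (8.6 to 27.5) lower for Btbd1, with 14 against 204 UMIs, to 7.28-fold (4.30 to 13.2) for Galnt11. The 300 lower genes of the group had a median difference of 3.32-fold, and 294 of them stayed at least 1.5-fold lower among cells that were not ribosome-poor.

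The group reached into microglial function. Lamp1, a main membrane protein of lysosomes, had 340 UMIs (198 CPM) in recovered and 2086 (1228 CPM) in non-shocked microglia, 6.21-fold lower (5.54 to 6.99). Levels were 207 CPM (chronic non-helpless) and 206 CPM (acute non-helpless) on its side of the split, against 908 CPM (chronic non-recovered) and 1411 CPM (acute helpless) on the other. Mcoln1, the lysosomal calcium channel, was 2.69-fold (1.89 to 3.90) lower. The rest of the lysosome list did not follow: 33 of 37 members lay within 1.5-fold, with Lamp2 at 1.09-fold (0.996 to 1.2), Ctsb at 0.941 (0.901 to 0.982) and Lgmn at 0.996 (0.968 to 1.03), and the median was -0.06.

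Other members of the group were Gnas, the stimulatory G protein subunit, at 4.0-fold lower (3.43 to 4.68), the growth factor Vegfb at 4.22-fold (2.22 to 8.71), the transcription factors Cebpg and Cebpb at 2.61-fold (2.05 to 3.35) and 1.76-fold (1.46 to 2.14), and the interleukin-6 receptor Il6ra at 1.59-fold (1.43 to 1.77). Cebpb had 101 CPM in recovered microglia, above the 26.3 and 40.6 CPM of chronic and acute non-helpless microglia. The lists these genes belong to had medians of -0.15 (purinergic and neurotransmitter sensing, 12 measured genes), -0.11 (growth factors and resolution, 16), -0.11 (transcription factors of the C/EBP, KLF, AP-1 and MAF families, 18) and -0.06 (cytokine and pattern receptors, 30). The growth factor Pdgfa was the only higher member among them, at 1.53-fold. Within the purinergic list, Gnas and Gnai2 (1.66-fold lower, 1.44 to 1.90) were the lower members, while the receptors P2ry12 and P2ry6 lay within 1.5-fold.

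Outside the group, the lowest ratio was that of Pithd1, with 8 against 90 UMIs, 11.4-fold lower (5.54 to 27.2). Then came the class II chains and Egr1, already given, and Chuk, a kinase subunit of the NF-kB pathway, at 4.47-fold lower (2.79 to 7.45). Slc8a1, a sodium-calcium exchanger, was 4.01-fold (3.09 to 5.27), the receptor phosphatase Ptprs 3.46-fold (2.27 to 5.43), Rab24 3.30-fold (2.52 to 4.36), the phospholipid transporter Abcb4 3.23-fold (2.22 to 4.77) and Fam174a 3.20-fold (2.26 to 4.63) lower. Klf3, a Kruppel-like repressor, was 1.84-fold (1.59 to 2.13) and the interleukin-17 receptor Il17ra 1.62-fold (1.35 to 1.96) lower.

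The highest ratio at the same minimum was that of Qpct, a glutaminyl cyclase, with 97 against 3 UMIs, 31.9-fold higher (10.6 to 157). Its level was 445 CPM (acute non-helpless) and 191 CPM (chronic non-recovered), but 2.82 CPM (chronic non-helpless) and 5.16 CPM (acute helpless). Non-shocked microglia of batch 2 had 304 CPM against 1.77 CPM in those of batch 3, a wider gap than that between recovered and non-shocked cells of batch 3. Dlgap1, a postsynaptic scaffold gene, had 41 UMIs against 0 and was at least 13.5-fold higher at 3 counts for the non-shocked side. It showed the same order, with a level of 0 in both of the libraries where Qpct was low. The remaining high ratios were Ccnb1ip1 at 2.80-fold (1.91 to 4.19; 46 of its 105 recovered UMIs in 1 cell), Cacybp at 2.21-fold (1.67 to 2.94) and the ubiquitin ligase Mid1 at 2.14-fold (1.63 to 2.84).

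Lower and higher genes differed in length and base composition as annotated in GENCODE M21 (GRCm38), for 99.2% of measured genes. The median gene span was 12.8 kb for higher, 39.5 kb for lower and 23.7 kb for all measured genes. The first 400 nt of the longest transcript had a median GC content of 57.8%, 64.8% and 59.0% in the same order, and of 68.0% for the lower genes that part the libraries against 62.5% for the other lower genes. The part of length and composition in the differences was not tested.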

How the data were processed

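The authors deposited raw UMI counts per gene and cell and, in the cell metadata, counts of UMIs and detected genes per cell with batch, cluster and cell type. The tools named are Cell Ranger 2.2.0 and Seurat 2.3.4, with build mm10, per the submitters' processing notes. How cells were filtered and clustered and what defines a batch are not given in the sources used here. Normalized and merged files were not used. UMI sums equalled the deposited totals in every cell.

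Counts were summed over microglia per side and divided by that sum (CPM), in Python 3.11.15 with scipy 1.17.1. Ratios were given conditional exact 95% intervals. PCR duplicates are collapsed by UMIs, but intervals cover counting error only. In log2 ratios a count under 3 was set to 3. Intervals were tested on simulated counts that held counting error only. That simulation had no gathering of UMIs in single cells, so it does not bear on such spread. For levels in the other libraries, 259 older symbols were merged with newer ones. Doublets were kept; Scrublet (scanpy 1.11.5) called 20 recovered and 11 non-shocked cells. Figures used matplotlib 3.10.9.

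Members of the comparison, the 23 gene lists and the naming rule were chosen with earlier results of these data known. Genes named by rank were the 12 highest and 12 lowest with at least 50 CPM and 30 UMIs on the higher side, with and without genes that part the libraries, and those at least 1.5-fold above or below every other library. From lists, called members were named, or the 3 with most UMIs where fewer than 3 were called. The ranks skip genes of the mitochondrial genome, ribosomal proteins, haemoglobins, antigen receptors, unnamed models, Xist and the Y chromosome. Other list members and Dlgap1 were named after their values were seen. The alternatives changed scaling, thresholds and the cells used, 17 listed with the lists and 3 added after seeing the data: cells rich in MHC class II left out, ribosome-poor cells and the parting genes left out together, and each gene without its top cell.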

Additional observations from a re-analysis of the deposited data

How the results depend on the processing

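With 1 library a side, what the shocks, the retests and library preparation each added cannot be told apart. No paired analysis was possible because each group has 1 library and the labels carry no replicate numbers, and for the same reason no library could be left out. The 254 higher and 921 lower genes became 542 and 1674 with a minimum of 5 CPM, 90 and 397 with 50 CPM, 730 and 2012 with no filter, 41 and 473 at 2-fold, and 986 and 1632 in cells thinned to 1000 UMIs. Each cell weighted equally gave 430 higher genes, cluster 6 alone 566, and ribosome-poor cells and parting genes left out together 458 lower genes. The median over measured genes moved by less than 0.1 under every alternative.

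Among log2 ratios of named genes under the alternatives, 1927 stayed within their counting interval, 180 moved and 21 of genes at least 1.5-fold apart changed sign. Sign changes of genes within 1.5-fold are not among the 21. Changing or dropping the CPM minimum, or leaving out only the parting genes, cannot change a gene's own ratio. Each of these alternatives added 114 ratios to the 1927 by design. Leaving out ribosome-poor cells and parting genes together repeats the ratios of leaving out ribosome-poor cells alone, with 25 moved in each. With cells weighted equally Cd74 was 0.97, H2-Aa 1.00 and H2-Eb1 0.25. In thinned cells Cd74 was 1.28, H2-Aa 0.15, H2-Eb1 0.15, H2-Ab1 0.47 and Fkbp5 0.035. H2-Aa was 0.23 without MHC class II-rich cells and 0.24 without top cells. In cluster 6, with 46 against 9 cells, Atf3 was 0.012, Hspa1a -0.0089, Hspe1 -0.73, Il17ra 0.35, Il6ra 0.13, Klf3 0.35, Mef2a 0.19, Nfkbia -0.65, Psmb5 -1.99, Slc8a1 0.18 and mt-Atp8 0.65. Without top cells the other class II genes kept their sign near 0, at -0.09 for H2-Ab1, -0.19 for H2-Eb1 and -0.08 for Cd74, with 1 cell left out on each side. The cause of the sign changes was not tested. The heat shock median ran from 0.52 to 0.91 outside cluster 6 and was 0.27 in it.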
